A study of Mus musculus with 4 samples.

Results

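The genes described are 9 enzymes of the brush border, the layer of microvilli on absorptive enterocytes: the peptidases Anpep, Enpep, Dpp4 and Mme, the disaccharidases Lct, Sis, Mgam and Treh, and the alkaline phosphatase Akp3. They were chosen by gene symbol, with earlier results of these data known. They are represented by 13 of the 41174 probes on each array, against 27595 genes named on the array in all. The study measured mRNA of enterocytes freshly isolated from mouse small bowel, in 2 samples of wild-type (WT) mice and 2 samples of IKKb(EE)IEC littermates, with 1 one-colour Agilent array per sample. IKKb(EE) is an always active mutant of IKKb, a kinase that is the main activator of the NF-kB transcription factors, and IEC stands for intestinal epithelial cells. The mice were untreated as far as the labels say. The sources used here do not give the strain, the age, the promoter that drives the IKKb(EE) allele or how many mice each sample holds. The series' design text calls the replicates biological.

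Digestion of protein and carbohydrate ends at the brush border. Pancreatic enzymes leave short peptides and small sugars in the lumen, and hydrolases anchored in the microvillus membrane cut these to the amino acids, short peptides and monosaccharides that neighbouring transporters take up. The genes are switched on as enterocytes leave the crypt, and many vary along the length of the intestine and with age, lactase being the enzyme of suckling. Their known regulators in the intestine include the CDX and GATA transcription factors.

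Every array lay on the same slide, WT at positions 1 and 2 and IKKb(EE)IEC at positions 3 and 4, so slide position and genotype cannot be told apart. The 75th percentile of signal was 60.3 to 66.1 for WT and 94.6 to 107.8 for IKKb(EE)IEC arrays, and 34.3% to 41.1% of spots were well above background. Values below are log2 signals after subtraction of each array's 75th percentile, called normalized log2 signals, and a fold change is the IKKb(EE)IEC mean minus the WT mean on that scale, with its standard error (SE) from limma and n = 2 arrays per genotype. Passing the test means a limma p below 0.05 after Benjamini-Hochberg adjustment over 12427 genes. All 10 epithelial markers checked, among them Epcam, Cdh1 and Vil1, were well above background on every array, as the label of the cells requires. Ikbkb, the gene of IKKb, had normalized log2 signals of -0.72 and -0.27 in WT against 0.33 and 0.34 in IKKb(EE)IEC samples, a difference of 0.83 ± 0.21 (SE) with a limma adjusted p of 0.055. In RNA of whole cell samples, fewer cells of a type and less RNA per cell cannot be told apart.

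The promoters of 4 of these genes are shown because the genes behaved differently from one another: Anpep rose, Lct fell, Mgam had separate groups without passing the test, and Sis had overlapping groups. Each line is the 250 bases before the annotated start, 5′ to 3′ on the gene's strand, from RefSeq on GRCm38.p6. All 9 genes were matched by symbol to 11 promoters, since Mme has 3 starts. Capitals mark matches on either strand. One motif searched, for CDX factors, had the letters TTTAT, and the other motif, for factors of the GATA family, had the letters GATAA. The windows are chr7:79848211-79848460 for Anpep, chr1:128328319-128328568 for Lct and chr3:72967864-72968113 for Sis, all on the minus strand, and chr6:40628581-40628830 for Mgam on the plus strand.
Anpep: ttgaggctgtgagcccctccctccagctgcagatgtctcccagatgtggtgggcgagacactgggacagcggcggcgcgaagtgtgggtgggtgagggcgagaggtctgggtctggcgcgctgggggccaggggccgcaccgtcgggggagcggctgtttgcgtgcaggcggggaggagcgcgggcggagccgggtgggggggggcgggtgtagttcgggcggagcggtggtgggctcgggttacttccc
Lct: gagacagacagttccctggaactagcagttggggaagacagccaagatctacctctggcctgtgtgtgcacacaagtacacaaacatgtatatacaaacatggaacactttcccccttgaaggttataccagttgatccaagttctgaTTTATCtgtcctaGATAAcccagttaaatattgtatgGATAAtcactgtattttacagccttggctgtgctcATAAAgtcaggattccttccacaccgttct
Mgam: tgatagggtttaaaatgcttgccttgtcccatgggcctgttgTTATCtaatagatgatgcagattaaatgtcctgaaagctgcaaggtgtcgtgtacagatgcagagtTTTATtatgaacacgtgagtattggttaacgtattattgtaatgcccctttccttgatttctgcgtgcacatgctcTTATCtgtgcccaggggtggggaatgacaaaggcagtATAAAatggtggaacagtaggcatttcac
Sis: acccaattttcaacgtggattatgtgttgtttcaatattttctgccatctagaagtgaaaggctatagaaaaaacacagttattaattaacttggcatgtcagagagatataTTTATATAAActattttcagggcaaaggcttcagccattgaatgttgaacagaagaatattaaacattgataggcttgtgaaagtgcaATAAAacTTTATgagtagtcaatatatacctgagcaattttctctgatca

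The Anpep window held neither motif and had a GC content of 72.8%, above the median of 52.4% over 32851 mouse promoters of the same length. The Lct window had 42.8% GC, with 2 TTTAT and 3 GATAA matches. A TTTAT match and a GATAA match on opposite strands overlap there, at 102 to 97 bases before the start, and read as a single stretch of capitals. The Mgam window had 42.4% GC, 2 TTTAT and 2 GATAA matches. The Sis window was the most AT-rich of the 4 at 31.6% GC, with 4 TTTAT matches and no GATAA match. Its matches at 138 to 134 and at 133 to 129 bases before the start adjoin and read as a single stretch of capitals. Of the promoters not shown, Dpp4 and Enpep each had 1 TTTAT and 1 GATAA match, and Akp3, Treh and the 3 starts of Mme had none. No window of the 9 genes held a match to the kappa B consensus. These letters are common: TTTAT is in 37.3% of the 32851 promoters, GATAA in 22.6% and the kappa B consensus in 3.9%. A match describes the letters only, and a window without one says nothing of whether a factor binds.

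Across the family the change between genotypes was not in one direction. Of the 8 genes bright enough to test, Anpep was higher and Lct was lower in IKKb(EE)IEC samples, and 6 did not pass. The 2 that passed compare with 15.2% of all genes tested (8.01% higher and 7.2% lower). The genotypes did not overlap for 5 of the 8 genes, with Anpep, Mgam and Enpep higher and Lct and Dpp4 lower, against 69.2% of all genes (28.3% higher and 40.9% lower), so neither count stands far from its background. The median fold change of the 8 genes was 0.09 on the log2 scale, and that of all genes was -0.12.

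**Figure D1:**
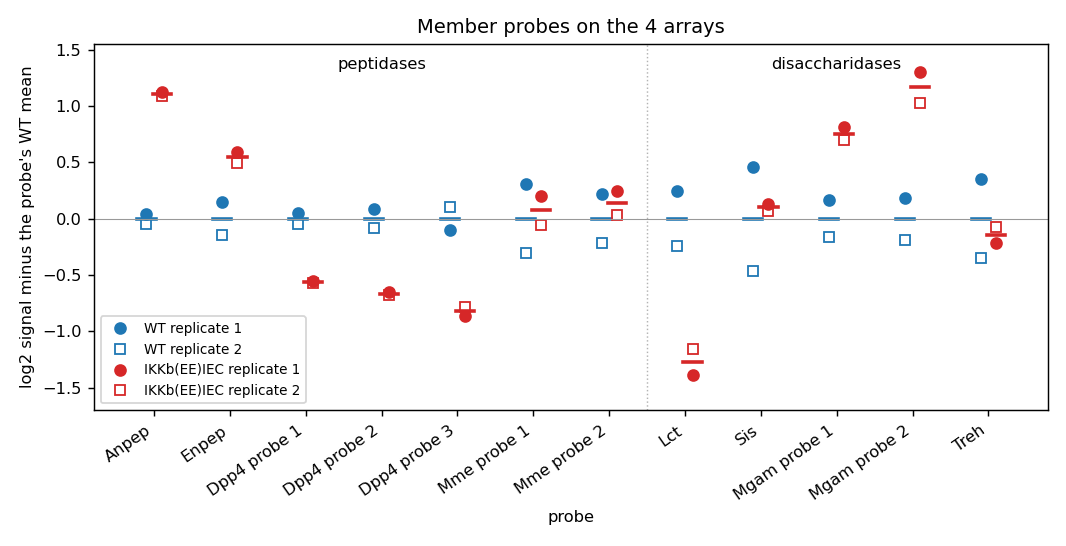
Normalized log2 signal of each of the 12 tested probes on the 4 arrays, minus the WT mean of the same probe, with bars at the genotype means. Anpep, Enpep and both Mgam probes lie above both WT arrays in both IKKb(EE)IEC arrays, Lct and the 3 Dpp4 probes lie below, and the WT arrays are far apart for Sis, Treh and Mme.

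Among the peptidases, Anpep, which encodes aminopeptidase N and trims neutral residues from the N-terminus of peptides, rose. Its normalized log2 signal was 9.28 and 9.19 in the WT samples and 10.36 and 10.32 in the IKKb(EE)IEC samples. The replicates of each genotype were close together, and the groups were well apart. The difference was 1.10 ± 0.16 (SE), a 2.15-fold higher level, with a limma adjusted p of 0.017. The single probe lies at chr7:79695352-79695411 (mm8), and it was saturated on no array. Before any scaling, its signal was 37584 and 38654 in WT against 124070 and 137982 in IKKb(EE)IEC samples. The call did not survive the loss of either IKKb(EE)IEC array (adjusted p of 0.177 without replicate 1 and 0.173 without replicate 2), although the fold change stayed between 1.05 and 1.15 whichever array was left out.

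Enpep encodes aminopeptidase A, which removes acidic N-terminal residues, and also breaks down angiotensin II. Its normalized log2 signals were 4.78 and 4.49 in WT against 5.23 and 5.13 in IKKb(EE)IEC samples (probe at chr3:129262014-129262073, mm8). The IKKb(EE)IEC values were both above the WT values, by less than for Anpep. The difference of 0.54 ± 0.19 (SE), with a 95% interval of 0.08 to 1.01 before adjustment, did not pass (limma adjusted p = 0.0963).

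Dpp4 encodes dipeptidyl peptidase 4, which releases dipeptides that end in proline or alanine. It is read by 3 probes. The brightest, at chr2:62132844-62132903 (mm8), gave 4.84 and 4.74 in WT against 4.24 and 4.22 in IKKb(EE)IEC samples. A second probe, overlapping the first, gave 3.63 and 3.46 against 2.89 and 2.87, and the third, whose listed interval covers 2067 bases from 62155418 to 62157484, gave 1.31 and 1.51 against 0.55 and 0.63. All 3 probes were lower on both IKKb(EE)IEC arrays. By the brightest probe the difference was -0.56 ± 0.16 (SE; limma adjusted p = 0.0712). Fitted by themselves over all 16405 probes, the second differed by -0.67 ± 0.17 (limma adjusted p = 0.0566) and the third by -0.82 ± 0.18 (limma adjusted p = 0.0394). Dpp4 is thus at the edge of the threshold, and which probe is used decides its call. As a mean over its probes, it passed at -0.68 (limma adjusted p = 0.0457).

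Mme encodes neprilysin, an endopeptidase of small peptides. Its brighter probe, at chr3:63427979-63428038 (mm8), gave 5.12 and 4.51 in WT against 5.02 and 4.76 in IKKb(EE)IEC samples. Its other probe gave 2.36 and 1.93 against 2.39 and 2.18. The groups overlapped by both probes, and the WT replicates differed more than the genotype means. The fold change by the brighter probe was 0.08 ± 0.26 (SE; limma adjusted p = 0.843), with a 95% interval of -0.57 to 0.72 before adjustment.

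Among the disaccharidases, Lct, the gene of lactase-phlorizin hydrolase, fell. Its normalized log2 signal was 8.30 and 7.81 in the WT samples and 6.67 and 6.90 in the IKKb(EE)IEC samples (probe at chr1:130112358-130112417, mm8). Both IKKb(EE)IEC values were below both WT values, and the WT replicates were further apart than for Anpep. Lct was 2.4-fold lower, a difference of -1.26 ± 0.23 (SE) with a limma adjusted p of 0.0283. Without either IKKb(EE)IEC array it did not pass (adjusted p of 0.201 and 0.141), and it missed the threshold after quantile normalization (-0.95, adjusted p = 0.0736) and in the deposited value table (-0.92, adjusted p = 0.0681).

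Mgam encodes maltase-glucoamylase, which splits maltose and short glucose chains. Its brighter probe, at chr6:40698495-40698554 (mm8), gave 6.90 and 6.57 in WT against 7.55 and 7.43 in IKKb(EE)IEC samples, a difference of 0.76 ± 0.19 (SE) with a limma adjusted p of 0.055. Its dimmer probe, with an interval of 2213 bases from 40695624 to 40697836, gave 3.78 and 3.41 against 4.90 and 4.62, a difference of 1.17 ± 0.21 (SE; limma adjusted p = 0.0284 over all probes). Both probes were higher on both IKKb(EE)IEC arrays, and only the dimmer one passed. Over all member probes fitted by themselves, 4 of 12 passed, one each of Anpep, Lct, Mgam and Dpp4, against 13.9% of all probes.

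Sis encodes sucrase-isomaltase, the enzyme of sucrose and of branched starch fragments, which shares its ancestry with maltase-glucoamylase. Its normalized log2 signal was 8.03 and 7.11 in the WT samples and 7.70 and 7.64 in the IKKb(EE)IEC samples (probe at chr3:72976817-72976876, mm8, listed on the array under an older clone name). Both IKKb(EE)IEC values lay between the WT values. The difference was 0.10 ± 0.32 (SE; limma adjusted p = 0.834), with a 95% interval of -0.70 to 0.90 before adjustment, which includes the difference seen for Mgam. The direction depended on 1 WT array: without WT replicate 1 the difference was 0.56 (limma adjusted p = 0.0242), and without WT replicate 2 it was -0.36.

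Treh, which encodes the enzyme of the fungal and insect sugar trehalose, gave 5.21 and 4.51 in WT against 4.64 and 4.79 in IKKb(EE)IEC samples (probe at chr9:44437136-44437195, mm8). The groups overlapped, and the difference of -0.14 ± 0.27 (SE; limma adjusted p = 0.713) was smaller than the distance between the WT replicates. It was 0.21 without WT replicate 1.

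Akp3 encodes a duodenal alkaline phosphatase, which removes phosphate at the brush border and is not a hydrolase of peptides or sugars. Its only probe, at chr1:88957097-88957156 (mm8), was not well above background on any of the 4 arrays, so no fold change is given and it did not enter the fit. Alpi, the gene of another intestinal alkaline phosphatase, was measured in both genotypes: 3.03 and 2.18 in WT against 2.87 and 2.73 in IKKb(EE)IEC samples, a difference of 0.19 ± 0.31 (SE; limma adjusted p = 0.662).

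Changes within an array do not depend on how arrays are scaled to each other by a single shift. The difference between the log2 signals of Anpep and Lct was 0.99 and 1.39 on the WT arrays, against 3.69 and 3.42 with IKKb(EE)IEC. This contrast changed by 2.37, with 2.03 to 2.70 over the array pairs, and by 2.55 after quantile normalization. That of Anpep and Dpp4 changed by 1.66 (1.65 to 1.67), that of Mgam and Lct by 2.02, and that of Anpep and Enpep by 0.56 (0.43 to 0.69). After quantile normalization, which is not a single shift, these contrasts changed by 2.05, 2.01 and 0.92, in the same order. The sizes of those with Anpep thus depended on the scaling. In these samples the peptidases and the disaccharidases each contained genes with unequal changes, but no contrast was tested. For Mgam against Sis the change was smaller, at 0.66 (0.33 to 0.98), and the WT arrays themselves were apart, at -1.13 and -0.54. The largest of the changes named was between 2 genes that are both textbook markers of the mature enterocyte.

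The WT samples differed in these genes. All 8 tested genes were lower on the array of WT replicate 2 than on that of WT replicate 1, against 45.6% of all genes tested. This was not particular to the members. In lists described below, it held for 9 of 10 villus tip genes, 11 of 14 transporters, 11 of 16 other brush border hydrolases and 11 of 18 microvillus genes. It held for 9 of 14 enterocyte transcription factors, 5 of 10 epithelial markers and 5 of 13 cytosolic and lysosomal peptidases. The differences were -0.92 for Sis, -0.70 for Treh, -0.61 for Mme, -0.49 for Lct, -0.33 for Mgam, -0.29 for Enpep, -0.10 for Dpp4 and -0.09 for Anpep. Their median was -0.41, against 0.05 over all genes. The IKKb(EE)IEC replicates were closer together, with a median difference of -0.05 for the same genes and 0.01 for all genes.

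The same replicate stood apart in genes of intestinal position. Of 11 genes typical of the distal small intestine, 10 were higher on WT replicate 2 than on WT replicate 1, among them the ileal bile acid genes Fabp6 (3.99 against 1.04) and Slc10a2 (2.41 against 0.50). Of 9 genes of the proximal small intestine, 5 were lower and 4 were higher there. Liver genes were also on that array: 5 of 6 liver markers were well above background on WT replicate 2, 1 on WT replicate 1 and none on the IKKb(EE)IEC arrays. Their summed level, in multiples of the array's 75th percentile, was 31.0 on WT replicate 2 and 3.19 on WT replicate 1, and it was 0.583 to 0.726 for IKKb(EE)IEC. Whether the length of intestine taken or the tissue around it plays a part in the lower signals of the tested members in that sample was not tested.

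**Figure D2:**
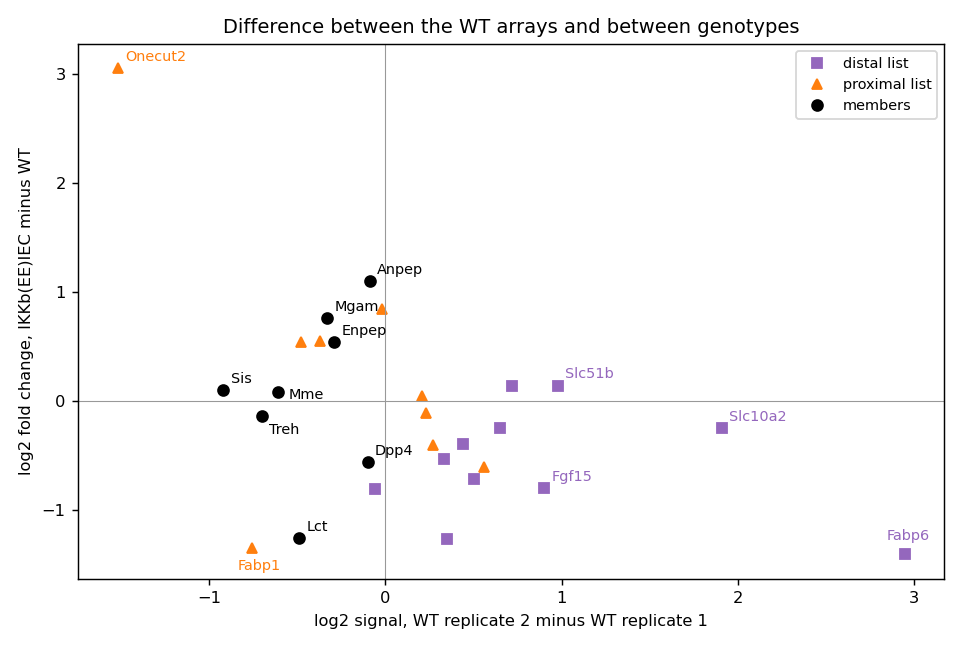
Difference between the WT replicates (replicate 2 minus replicate 1, log2) against the fold change between genotypes (log2), for the 8 tested members and for the proximal and distal gene lists. Every member lies left of 0 on the horizontal axis, at -0.92 to -0.09, and most distal genes lie to its right.

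A single shift per array moved these values together. Quantile normalization moved them unequally, with Anpep going from 1.10 to 1.60 and Dpp4 from -0.56 to -0.45. A shift by spike-in control probes, added after seeing the data, moved the median fold change of all genes from -0.12 to 0.22 on the log2 scale and raised every member by a like amount. With the planned normexp background correction no gene passed, Anpep and Lct included (limma adjusted p = 1 for each, and 169 genes at an unadjusted p below 0.05). In the reported fit and the 11 other settings of background correction, scaling, filter, probe choice and replicate block, among them 3 added after seeing the data, Anpep passed in all 12, with fold changes of 1.10 to 1.60. Lct passed in 8 (-1.26 to -0.92), Mgam in 6 (0.76 to 1.10), Dpp4 in 1 (-0.68 to -0.22) and Enpep in 1 (0.54 to 0.89). Sis (0.10 to 0.44), Treh (-0.14 to 0.20) and Mme (0.08 to 0.42) passed in none. The members' counts are given beside the share of all genes called. Where 2 members passed, that share was 16% under a shift by array medians, 14% after quantile normalization, 14.3% in the deposited value table, 14.2% with every probe by itself, 12% with the replicate block, 17.2% with the spike-in shift and 13.6% with a shift by probes above background. It was 15.8% for repaired normexp (4 members), 15.2% for the mean over probes (4 members), 18.7% for a filter on all 4 arrays (3 members) and 2.99% without a filter (1 member). Leaving out WT replicate 1 gave 6 members with 49.6% of all genes, and leaving out WT replicate 2 gave 4 members with 33.6%. Leaving out IKKb(EE)IEC replicate 1 or 2 gave 0 members in limma, with 2.02% and 2.64% of all genes, and 2 and 3 members at an unadjusted p below 0.05.

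**Figure D3:**
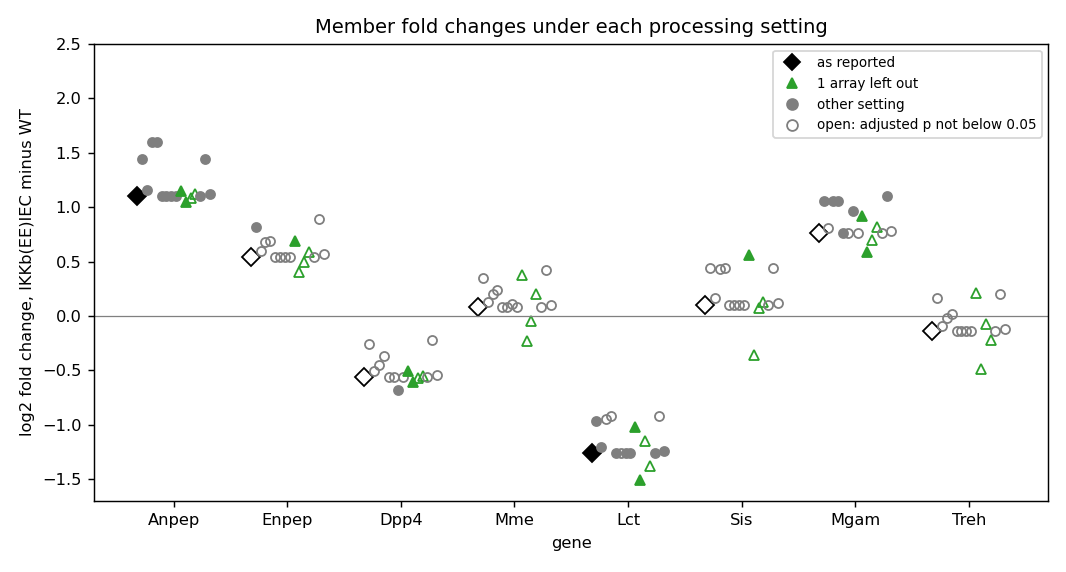
Fold change of each tested member (log2, IKKb(EE)IEC minus WT) as reported, with 1 array left out, and under the 11 other settings (the planned normexp correction is not drawn), where an open symbol marks an adjusted p not below 0.05. Anpep stays at 1.05 or above, Lct stays at -0.92 or below, and Sis, Treh and Mme lie on both sides of 0.

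Related genes were counted in lists chosen by function. Of 16 other brush border hydrolases tested, 4 fell, none rose and 12 did not pass, with a median of -0.52. With the spike-in shift 2 rose and 2 fell (median -0.18), and with repaired normexp 3 rose and 4 fell (median -0.29). Without a filter none passed in limma, with 11 of 17 at an unadjusted p below 0.05, against 14017 of all 27588 genes. Plb1, a phospholipase, went from 1.29 and 3.19 in WT to -1.01 and -0.66 in IKKb(EE)IEC samples, a difference of -3.07 ± 0.61 (SE; limma adjusted p = 0.0341). This value depended on the WT array used: it was -4.03 without WT replicate 1 and -2.12 without WT replicate 2. Xpnpep2, the membrane aminopeptidase P, fell by 1.18 ± 0.20 (limma adjusted p = 0.0241) and Mep1a, a subunit of the metalloprotease meprin, fell by 0.92 ± 0.19 (limma adjusted p = 0.0383). An unadjusted limma p below 0.05 was found for 10 of the 16, against 4738 of all 12427 genes. The same background applies to the counts below at an unadjusted p in the reported fit.

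Peptidases inside the cell gave no call in the reported fit. Of 13 cytosolic and lysosomal peptidases, none passed in limma, with a median of 0.13, and 3 had an unadjusted p below 0.05. With repaired normexp or the spike-in shift 2 rose, and in the deposited value table or with a filter on all 4 arrays 1 rose. Those with the smallest p were Npepps, at 0.67 ± 0.18 (limma adjusted p = 0.0588), and Prep, at 0.71 ± 0.22 (limma adjusted p = 0.0761). Of 14 transporters of sugars, amino acids and peptides, 1 rose and none fell, with a median of -0.03. The one was Slc3a1, the accessory subunit of a carrier for cystine and basic amino acids, at 0.76 ± 0.17 (limma adjusted p = 0.0444). The median of this list was 0.31 under the spike-in shift, where 3 rose. With repaired normexp 4 rose, with a filter on all 4 arrays 3, with the median shift 2 and without a filter none.

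Of 18 tested genes that build the microvillus, 4 rose, 1 fell and 13 did not pass, with a median of 0.32. With the median shift or the replicate block 2 rose, without a filter 1 rose, and with repaired normexp 9 rose. Eps8l3 rose by 1.44 ± 0.16 (limma adjusted p = 0.00773), Cdhr5, a protocadherin that links neighbouring microvilli, by 0.94 ± 0.18 (limma adjusted p = 0.0339), and Ezr, which ties actin to the membrane, by 0.71 ± 0.17 (limma adjusted p = 0.0476). Espn, an actin bundler, fell by 0.67 ± 0.16 (limma adjusted p = 0.0494). It did not pass after quantile normalization (-0.65, limma adjusted p = 0.054) or with the spike-in shift (-0.33, limma adjusted p = 0.247). Vil1 differed by 0.05. Of 14 enterocyte transcription factors, 3 rose, 1 fell and 10 did not pass, with a median of 0.49. Klf5 rose by 0.68 ± 0.17 (limma adjusted p = 0.0492) and Onecut2 by 3.05 ± 0.48 (limma adjusted p = 0.0205), while Hnf4g fell by 0.97 ± 0.19 (limma adjusted p = 0.0337). Onecut2 was well above background on only 1 WT array, and its value ranged from 2.29 without WT replicate 2 to 3.80 without WT replicate 1. Of the motif families marked in the promoters, Cdx2 differed by 0.45 (limma adjusted p = 0.121), Gata4 by -0.41 (limma adjusted p = 0.193) and Gata6 by -0.15 (limma adjusted p = 0.656), none of which passed. Without either IKKb(EE)IEC array no gene in these 5 lists passed in limma, and 0 to 6 per list had an unadjusted p below 0.05.

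**Figure D4:**
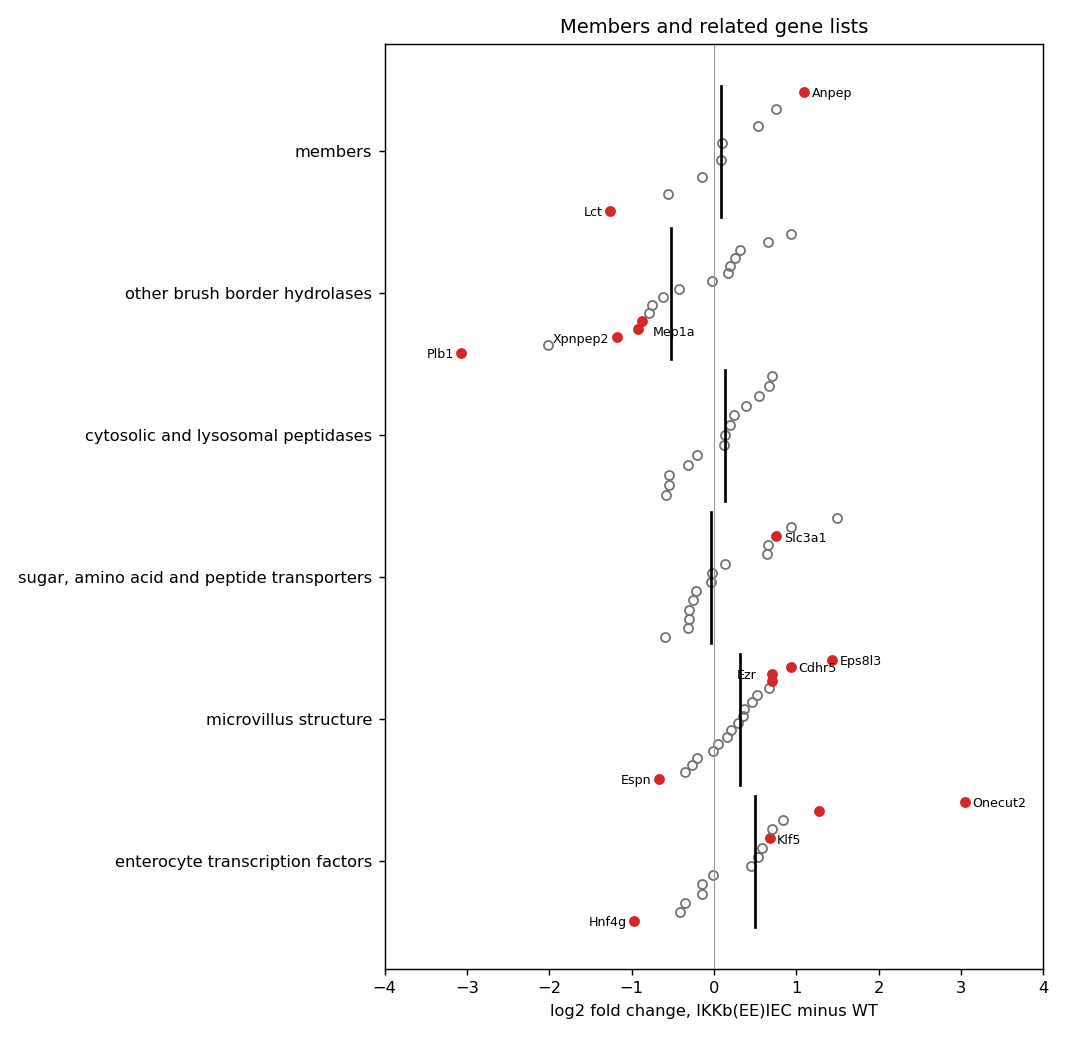
Fold change (log2, IKKb(EE)IEC minus WT) of the tested members and of 5 related gene lists, with a bar at the median of each list. Filled red points passed the test, and those named in the text are labelled. The median of the other brush border hydrolases lies at -0.52, and that of microvillus structure at 0.32.

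Genes typical of the villus tip, the zone of the oldest enterocytes, gave 2 rises and 2 falls among 10. Apobec1 (1.18 ± 0.26, limma adjusted p = 0.0417) and Junb (0.87 ± 0.19, limma adjusted p = 0.0432) were higher, and Slc28a2 (-1.62 ± 0.23, limma adjusted p = 0.0154) and Ada (-1.44 ± 0.22, limma adjusted p = 0.0193) were lower. The proximal list held 2 rises, Onecut2 and Slc11a2 (0.84 ± 0.16, limma adjusted p = 0.0339), and 1 fall, Fabp1 (-1.35 ± 0.28, limma adjusted p = 0.0379). The distal list held no rise and 2 falls, Nts (-1.27 ± 0.19, limma adjusted p = 0.0179) and Slc51a (-0.81 ± 0.16, limma adjusted p = 0.0357). Among the 10 epithelial markers, Fabp1 and Fabp2 (-1.56 ± 0.23, limma adjusted p = 0.0161) fell and 8 did not pass. After quantile normalization neither passed, at -0.51 and -0.32. The list's summed level was 12300 and 13400 multiples of the 75th percentile in WT against 5450 and 5650 in IKKb(EE)IEC samples. Fabp1 and Fabp2 carried the difference, at 10900 and 11900 in WT against 3960 on each IKKb(EE)IEC array, and the other 8 markers summed to 1470 and 1490 in WT against 1490 and 1690.

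Some of these enzymes are also made by other cells: Dpp4 by T cells, Anpep by myeloid cells, and Mme and Enpep by stromal cells. The summed level of 13 T and NK cell markers was 184 and 202 in WT against 147 and 130 in IKKb(EE)IEC samples, and none passed in limma, with 4 at an unadjusted p below 0.05. Of 10 macrophage markers, 2 and 3 were well above background on the WT arrays, against 8 and 9 with IKKb(EE)IEC, with a summed level of 7.5 and 9.27 against 27.5 and 21.2, and Cx3cr1 was not above background on any array. Of the 8 markers tested, 5 had a limma adjusted p below 0.05 and a higher mean, but for 4 of these 5 neither WT array was well above background, and they were tested only through the IKKb(EE)IEC arrays. With a filter on all 4 arrays, 2 markers were tested and 0 passed in limma or at an unadjusted p below 0.05. C1qc, one of these 4, gave -3.26 and -1.22 in WT against 3.04 and 2.68 in IKKb(EE)IEC samples (limma adjusted p = 0.0112). Its fold was 29.7 with each WT value raised, where lower, to the lowest probe above background on that array. The log2 difference was 4.08 without WT replicate 1 and 6.12 without WT replicate 2. C1qb, the partner chain of the same protein and above background on every array, gave 2.36 and 2.27 in WT against 2.22 and 2.12 in IKKb(EE)IEC samples (-0.15, limma adjusted p = 0.536), and Csf1r overlapped between the genotypes (0.34, limma adjusted p = 0.451). Of 12 stromal markers, 6 were tested and 2 of these fell, with a summed level of 26.7 and 23.9 in WT against 20.1 and 18.5 in IKKb(EE)IEC samples, and Col1a1, Col3a1, Des, Lum, Pdgfra and Pdgfrb were not above background on any array. Of 8 B cell markers, 3, among them Cd79a and Ms4a1, were likewise not above background on any array, and of the 5 tested 1 rose and 2 fell. Of 6 endothelial markers, 2 were tested, neither of which passed in limma (1 at an unadjusted p below 0.05). The part of these cells in the member values was not tested.

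The profiles over the 4 arrays closest to that of Anpep, by Euclidean distance of log2 signals centred on each gene's mean and over 10620 genes, were those of Csprs (0.03), Stat2 (0.07) and Kalrn (0.08). Those closest to Lct were Wfdc15b (0.14), Slc27a2 (0.15) and Atp6v0e2 (0.16). All 6 genes separated by genotype in the same direction as the enzyme they were matched to, which the choice by likeness fixes, so the distances carry no test.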

How the data were processed

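Total RNA of enterocytes was measured on 4 one-colour Agilent arrays of design 014868, 2 per genotype. The deposited spot intensities are, per the file headers, processed signals that the software Feature Extraction 9.5.3.1 had corrected for background. The headers record no normalization between arrays. Flags of another kind, such as well above background, are also from the deposited files, per the file headers. The authors' value table holds linear intensities with medians of 111.5 to 112.0 for 40913 probes, and the sources used here do not state its normalization. Arrays give no counts, so their number limits the precision.

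From log2 of the processed signal, the 75th percentile of the array's non-control spots was subtracted. Control spots and 1 to 7 non-uniform spots per array were left out, and saturated spots were kept. Probes well above background on 2 or more of the 4 arrays were kept (16405 probes), and a gene was represented by its brightest probe. Names follow a RefSeq table of GRCm38.p6 by accession for 24490 probes, and 2391 further probes carried an older symbol. Probe positions are on mm8, as in the files, and the sources used here do not place them in exons. The comparison of genotypes used limma 3.58.1 (lmFit, eBayes; R 4.3.3), two-sided and without covariates, which gave 12427 genes, 995 higher and 895 lower, and 4738 with an unadjusted p below 0.05. In data simulated for this comparison over 12427 genes, 3% of 100 genes changed by 1 log2 unit and 88% of 100 changed by 2 were recovered. No other genes were changed in the simulation. That is far fewer than were called in the real data, and the adjusted p depends on that number. The shares recovered therefore do not carry over to the real data. The p-values set each change against the spread between these samples. For each gene, limma draws that spread towards a value shared over all genes (prior SD 0.202, 3.51 prior degrees of freedom). The SEs hold this shared part too.

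The text names the 9 enzymes, Ikbkb, and from each list up to 3 members that passed in each direction or, where none did, the 2 with the smallest p. It also names the 3 closest profiles to each enzyme that passed. Alpi, Vil1, Cdx2, Gata4, Gata6, Fabp6 and Slc10a2 were named after their values were seen. The members and lists were chosen with earlier results of these data known. A few genes that the rule or lists take are not reported here. Alternatives changed the background correction, scaling, source table, filter, probe choice, replicates and block.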

Additional observations from a re-analysis of the deposited data

How the results depend on the processing

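Anpep kept its direction under every setting tried, and so did Lct, Mgam, Dpp4 and Enpep. With the planned normexp correction limma called 0 genes higher and 0 lower (169 had an unadjusted p below 0.05) and 0 members, with Anpep at 1.09 (adjusted p = 1) and Lct at -1.30 (adjusted p = 1). On 2 arrays, 4 spots each were dimmer than their local background, and the medians after normexp were 229.4, 87.7, 92.8 and 550.5. A repaired normexp, the spike-in shift and a shift by probes above background were chosen after seeing the data. Repaired normexp called 555 genes lower and 4 members, with Mgam at 1.06 and Enpep at 0.82. Mgam also passed at 1.06 after quantile normalization and in the authors' table, at 0.76 with a filter on all 4 arrays, at 0.96 as a mean over probes and at 1.10 with the spike-in shift. The mean over probes called 4 members, Dpp4 among them at -0.68. Lct did not pass at -0.95 (quantile), -0.92 (authors' table), -1.26 (no filter) or -0.92 (spike-in). Without a filter 489 genes were higher, 335 lower and 1 member passed, and with the spike-in shift 1867 were higher and 268 lower.

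Treh turned positive under repaired normexp (0.16), in the authors' table (0.02), with the spike-in shift (0.20) and without WT replicate 1 (0.21). Sis turned negative without WT replicate 2 (-0.36), and Mme without WT replicate 2 (-0.23) or IKKb(EE)IEC replicate 1 (-0.05). The cause was not tested. Of the called genes, the share that was higher moved from 52.6% to 63.2% with the median shift, 71.7% with repaired normexp, 87.4% with the spike-in shift and 40.0% with a filter on all arrays.

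With 1 array left out in turn, 168 to 2624 genes were higher, 83 to 3545 were lower and 0 to 6 members passed. Fold changes ranged from 1.05 to 1.15 for Anpep, -1.51 to -1.02 for Lct, -0.36 to 0.56 for Sis, 0.59 to 0.92 for Mgam, -0.49 to 0.21 for Treh, -0.61 to -0.51 for Dpp4, 0.40 to 0.69 for Enpep and -0.23 to 0.38 for Mme. The lone array of a genotype is then assumed to vary like the other genotype. With the replicate number as a block, 907 genes were higher, 584 lower and 2 members passed. Same-numbered arrays had a correlation of deviations of 0.107. With 2 arrays per genotype this value is the same for both pairs by construction. It cannot tell whether same-numbered arrays share more than a number. Akp3, at background on every array, entered only without a filter and did not pass (limma adjusted p = 0.897).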
